A study of Rattus norvegicus with 4 samples.

Results

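The enzymes that build purine and pyrimidine nucleotides, convert them into the deoxynucleoside triphosphates (dNTPs) used for DNA, and salvage free bases and nucleosides were followed in RSC96 rat Schwann cells given interleukin-22. The genes were chosen by name from a list of 43 symbols. Of these, 41 had a row among the 17778 rows of the deposited gene table, and the symbols Adssl1 and Ctps had none and are not analysed here (RefSeq lists Ctps as another name of Ctps1). Where a symbol had several rows, the row with the highest mean was taken, which applied among these enzymes only to Hprt1, whose 2 rows held the same 4 values. RSC96 is an established cell line from the rat, labelled as Schwann cells, which wrap and support the axons of peripheral nerve. Cells of generation 4 were kept without serum overnight and then received either recombinant rat IL-22 at 100 ng/ml for 48 h or, as control, its solvent, 0.1% bovine serum albumin (the duration for controls is not stated). Each group had 2 libraries of poly(A) RNA, and nothing in the labels says that they came from separate cultures, so the p-values reflect the spread of these libraries alone, and that may be technical. The title of the series names Schwann cell proliferation as its subject.

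Nucleotides are made along de novo routes, which assemble the base from small precursors, and salvage routes, which reattach a free base or phosphorylate a nucleoside. Purine and pyrimidine synthesis de novo and the salvage of free purine bases all draw on phosphoribosyl pyrophosphate (PRPP). Ribonucleotide reductase turns ribonucleotides into deoxyribonucleotides, and thymidylate comes either from dUMP through thymidylate synthase or from thymidine through a thymidine kinase. Part of this machinery is known to be made mainly in cells that are copying their DNA, whereas a second, low-abundance set supplies resting cells and mitochondria.

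Values are FPKM, fragment counts that the authors' tools divide by transcript length and by library size, so levels of different genes can be compared per length. Read totals are unknown; the steps between low values placed the other libraries at a depth of 1.08 to 1.28 times that of control library 1. Gene rows above 0 numbered from 11196 to 11641 per library. Of 10 Schwann cell markers 9 had a row, and Sox10, S100b, Ngfr and Cdh19 lay at or below 0.119 FPKM in every library, so defining markers of the labelled cell type were nearly absent, and Pmp22 (18.2 and 20.2 FPKM in controls, 41.0 and 42.3 with IL-22) made up most of the summed level of the list, 21.4 and 23.2 against 43.5 and 45.2 FPKM. Of the 3 Schwann markers tested, Pmp22 and Erbb3 were higher and Gfap lower (1.76 and 1.60 FPKM in controls, 0.496 and 0.810 with IL-22). Il22ra1, the gene of the IL-22-binding receptor chain, was listed at 0 in all 4 libraries. Il10rb, the gene of the other receptor chain, measured 7.53 and 8.39 FPKM in controls and 9.18 and 8.48 with IL-22. The summed level of 7 macrophage markers was 4.47 and 4.19 FPKM in controls and 6.25 and 3.80 with IL-22. Aif1 and Emr1 were listed at 0 throughout. Cd14 measured 2.22 and 2.16 FPKM in controls and 4.61 and 2.47 with IL-22, and Cd68 1.56 and 1.21 against 0.998 and 0.775. Endothelial markers summed to 1.84 and 1.61 FPKM in controls and 0.623 and 0.808 with IL-22, and fibroblast markers to 406 and 397 against 401 and 407 FPKM. Most of the fibroblast sum came from Thy1 (201 and 222 FPKM in controls, 242 and 241 with IL-22) and Col1a2 (186 and 159 against 144 and 148). Pdgfra and Col1a1 were also detected, while Dcn and Lum were listed at 0. The part of any other cell type in the results below was not tested.

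After IL-22, most genes of nucleotide synthesis were lower, and the largest falls were in the supply of deoxynucleotides. Tk1, Tyms and Rrm2, which make thymidylate and reduce ribonucleotides, fell by factors of 2.77 to 3.01, and Ppat, the committed step of purine synthesis, fell by a factor of 2.50. The other falls in the de novo routes and their AMP and GMP branches were 1.19- to 1.95-fold. Of the 4 genes that rose, Tk2 and Dguok encode the mitochondrial deoxynucleoside kinases, Rrm2b the alternative small subunit of ribonucleotide reductase, and Ctps2 the minor CTP synthase. The rise of Rrm2b only just passed and was lost under several alternatives, among them quantile normalization and no filter on low values. Base salvage through Hprt1 and Aprt did not pass the test.

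Differences were tested with limma on log2(FPKM + 1) over the 9485 rows that averaged 1 FPKM or more, and are given as the IL-22 mean less the control mean, with the standard error (SE) of the fit. Of the 40 genes tested, 27 were lower (67.5%) and 4 higher (10.0%) at a Benjamini-Hochberg adjusted p under 0.05, and 9 did not pass. Over all tested rows 30.8% were lower and 27.6% higher, 58.4% in all. The median difference was -0.45, against -0.02 over all tested rows. Falls of at least 1 on the log2 scale were called for 5 of the 40 (12.5%), namely Ppat, Rrm1, Rrm2, Tyms and Tk1, against 2.84% of all rows. The groups did not overlap for 27 genes that were lower (41.7% of all tested rows) and 5 that were higher (38.4%), and 80.1% of all rows had separate groups in either direction. By route, the median difference was -0.54 for the 8 purine de novo genes, -0.46 for the 4 genes of the AMP and GMP branches, -0.67 for the 5 pyrimidine de novo genes and -0.86 for the 7 genes of dNTP and dTMP synthesis. It was -0.19 for the 3 purine salvage genes, -0.15 for the 8 genes of pyrimidine salvage and nucleotide kinases, and -0.05 for the 4 deoxynucleoside kinases, which moved both ways. In bulk RNA, fewer cells of a type and less RNA per cell cannot be told apart. With 2 libraries a group, the smallest p of an exact permutation test is 0.333, so the calls depend on the variance that limma pools over genes.

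**Figure D1:**
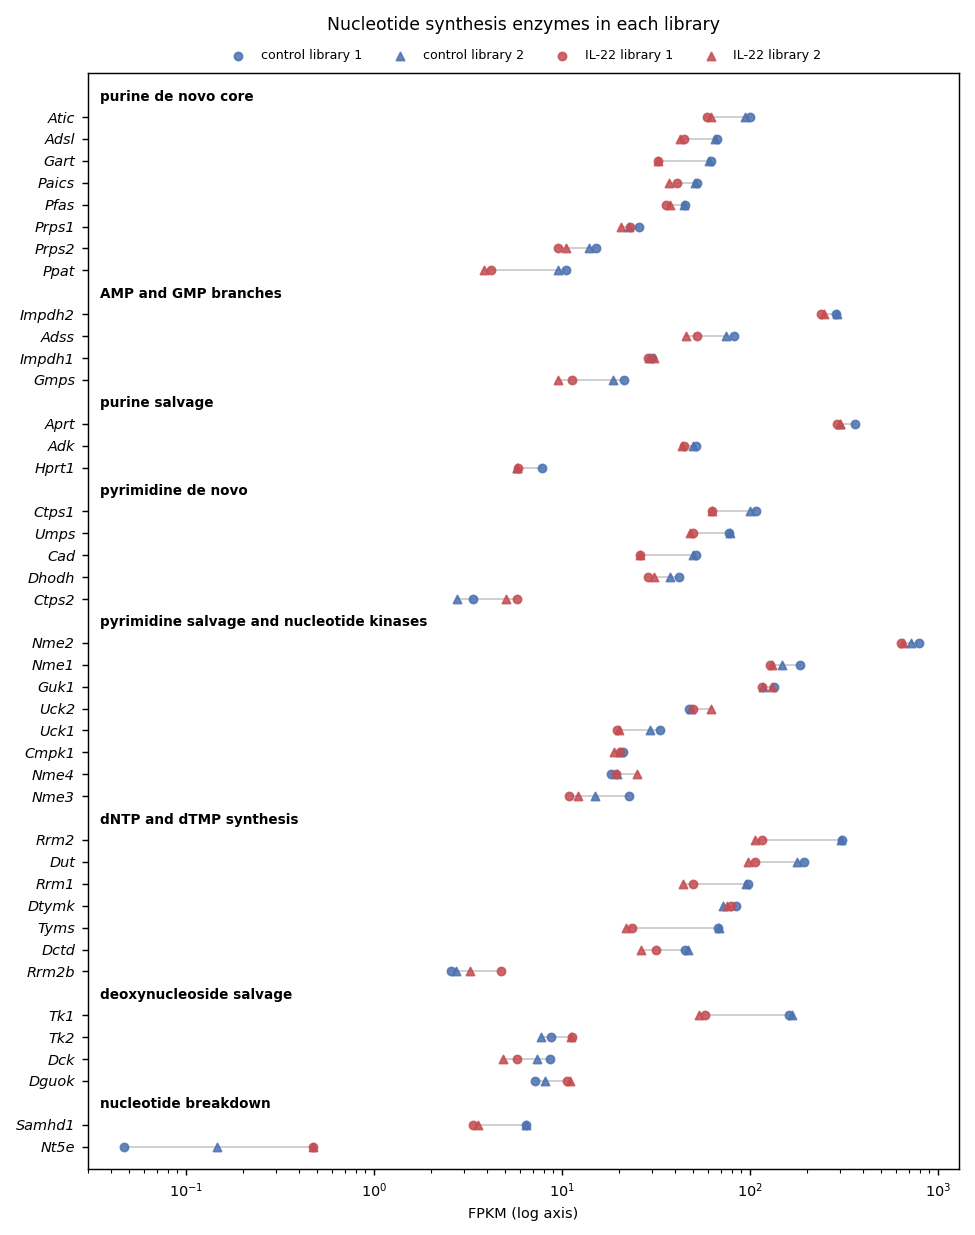
FPKM on a log axis for the 41 enzyme genes with a row, in 2 control libraries (blue) and 2 IL-22 libraries (red), grouped by route and ordered by control mean. Grey lines span the 4 libraries, and the red symbols of Tk1, Tyms, Rrm2 and Ppat lie well to the left of the blue ones.

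**Figure D2:**
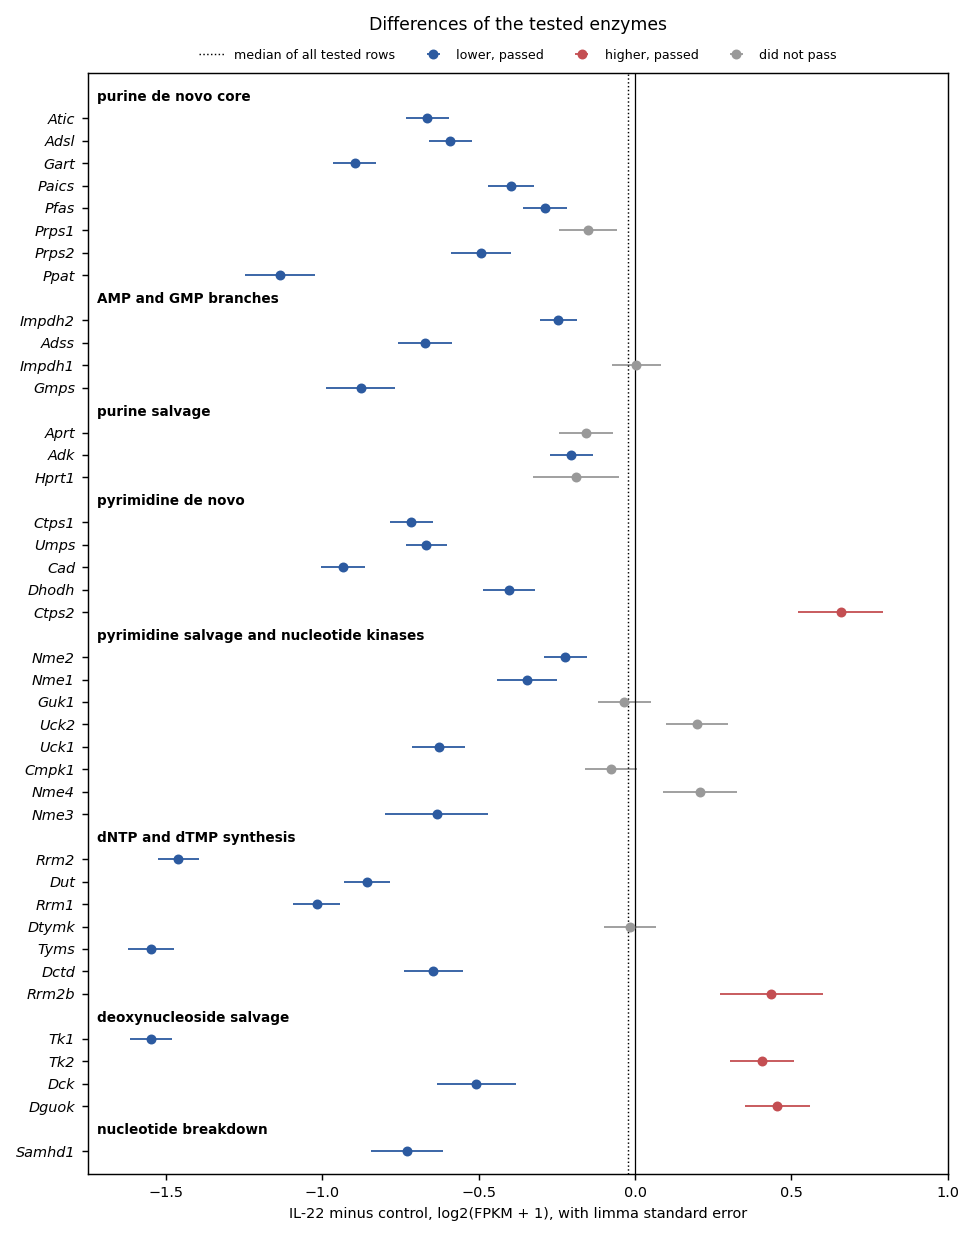
Difference of IL-22 from control, in log2(FPKM + 1), for the 40 tested genes, with limma standard errors as bars. Blue points (27) passed as lower, red points (4) as higher and grey points (9) did not pass, and the dotted line marks the median of all tested rows at -0.02.

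De novo purine synthesis starts from PRPP, which the PRPP synthetases Prps1 and Prps2 make. Prps1 measured 25.8 and 22.7 FPKM in controls and 22.9 and 20.6 with IL-22, so its groups overlapped and it did not pass (limma adjusted p = 0.197). Prps2 measured 15.2 and 13.95 FPKM in controls and 9.57 and 10.6 with IL-22, and both treated libraries lay below both controls (-0.49 ± 0.10, limma adjusted p = 0.0022). Prps1 held 63.0% and 62.0% of the summed level of the pair in controls and 70.5% and 66.1% with IL-22. The committed enzyme of the route, PRPP amidotransferase, is encoded by Ppat, the lowest of the 8 core genes in every library. Ppat had 10.5 and 9.56 FPKM in the control libraries against 4.19 and 3.86 after IL-22, a difference of -1.14 ± 0.11 (limma adjusted p = 3.85e-05). No other core gene fell as far on this scale, although with a pseudocount of 5 the difference of Ppat was -0.74 and that of Gart -0.82.

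The later steps had smaller differences. Gart, which encodes a fusion of several de novo activities, measured 61.8 and 60.3 FPKM in controls and 32.3 and 32.4 with IL-22 (-0.90 ± 0.07, limma adjusted p = 8.78e-06). Replicates of Gart lay close together, and the groups were far apart. Adsl, the adenylosuccinate lyase that acts in the core route and again on the way to AMP, went from 67.1 and 65.2 to 44.7 and 42.6 FPKM (-0.59). Atic, which closes the purine ring and is the most abundant core gene, went from 99.7 and 93.5 to 58.9 and 62.3 FPKM (-0.66). In both genes the treated libraries lay below the controls. Among the core genes that passed, the smallest falls were those of Paics (-0.40), which carries steps in the middle of the route, and of Pfas (-0.29), the FGAM synthase. Pfas lost its call without IL-22 library 1 (limma adjusted p = 0.0694).

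Ppat and Paics begin next to each other. In the RefSeq annotation of the assembly GRCr8, which is not the rn5 build of the expression values, they lie on opposite strands of chromosome 14 and their start sites overlap head to head by 26 bases. Their windows of 250 bases before to 50 after the start, at chr14:31569760-31570059 (plus strand, Ppat) and chr14:31569986-31570285 (minus strand, Paics), share 74 bases. They are shown because the 2 genes share this start region while their folds differed, with Paics at 52.0 and 51.0 FPKM in controls and 40.7 and 37.1 with IL-22 (1.32-fold lower) and Ppat 2.50-fold lower. Capitals mark words searched for as sites of E2F, a family of transcription factors known for genes of DNA synthesis: TTTCCCGC, TTTGGCGC, TTTCGCGC and TTTGCCGC on either strand, overlaps between words allowed.
Ppat: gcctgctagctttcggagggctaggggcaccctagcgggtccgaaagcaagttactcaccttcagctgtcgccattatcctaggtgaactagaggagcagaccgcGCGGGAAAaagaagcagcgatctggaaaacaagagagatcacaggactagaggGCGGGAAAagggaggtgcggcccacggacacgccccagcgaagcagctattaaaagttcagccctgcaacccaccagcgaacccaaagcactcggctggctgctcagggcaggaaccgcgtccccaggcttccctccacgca
Paics: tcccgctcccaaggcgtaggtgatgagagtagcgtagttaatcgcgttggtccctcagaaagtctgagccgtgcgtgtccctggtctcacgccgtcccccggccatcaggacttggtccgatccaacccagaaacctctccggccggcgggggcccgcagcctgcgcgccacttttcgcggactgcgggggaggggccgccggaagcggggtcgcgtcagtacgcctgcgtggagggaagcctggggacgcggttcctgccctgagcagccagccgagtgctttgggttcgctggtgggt
The Ppat window held the word GCGGGAAA, the reverse complement of TTTCCCGC, with its first base 145 and again 92 bases before the start. The Paics window, which reaches only 50 bases past its start, held none of these words. Both words of the Ppat window lie beyond that end, downstream of the Paics start, so they are close to both starts. Strand was not stated for the counting, so reads from the overlap itself cannot be assigned to either gene.

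Purine synthesis then divides. On the AMP side, Adss, the adenylosuccinate synthase, fell from 82.7 and 74.3 to 52.1 and 45.8 FPKM (-0.67 ± 0.09, limma adjusted p = 1.77e-04). On the GMP side, the GMP synthase gene Gmps fell from 21.4 and 18.6 to 11.4 and 9.52 FPKM (-0.88 ± 0.11, limma adjusted p = 1.67e-04). Both genes were lower in both treated libraries than in either control. IMP dehydrogenase, the enzyme ahead of Gmps, is made from Impdh1 and Impdh2. Impdh2 was by far the higher, at 288 and 289 FPKM in controls and 238 and 249 with IL-22 (-0.24 ± 0.06, limma adjusted p = 0.00706), a call lost without IL-22 library 1 (limma adjusted p = 0.0959). Impdh1 did not pass at 30.2, 29.1, 28.6 and 30.9 FPKM in the same order of libraries (0.00 ± 0.08, limma adjusted p = 0.973). The share of Impdh2 in the pair was 90.5% and 90.8% in controls and 89.3% and 88.9% with IL-22.

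Of the 3 purine salvage genes only Adk passed the test, as lower (33.3%), against 30.8% lower among all tested rows. Aprt, which recycles adenine, was the highest of the 3 salvage genes, at 359.7 and 299.9 FPKM in controls and 289 and 300.5 with IL-22. Control library 1 alone stood apart, and control library 2 lay between the treated libraries (-0.16 ± 0.09, limma adjusted p = 0.148). Hprt1, which recycles hypoxanthine and guanine, also had its highest value in control library 1, with 7.79 and 5.80 FPKM in controls and 5.80 and 5.74 with IL-22 (-0.19 ± 0.14, limma adjusted p = 0.26). Without control library 2 both genes passed as lower (limma adjusted p = 0.0165 for Aprt and 0.0452 for Hprt1). Control library 1 was above control library 2 in 30 of the 40 tested genes of this list, against 51.3% of all tested rows. Adk, the adenosine kinase, was at 51.6 and 49.9 FPKM in controls and 44.4 and 43.4 with IL-22 and just passed (-0.20 ± 0.07, limma adjusted p = 0.0288), but lost its call without either treated library (limma adjusted p = 0.111 and 0.169) or without control library 1 (0.0766), with quantile normalization (-0.11, limma adjusted p = 0.212) and without the variance trend (0.0631). Relative to Ppat, the level of Hprt1 was 0.738 and 0.607 in controls and 1.39 and 1.49 with IL-22, and that of Aprt 34.1 and 31.4 against 69.0 and 77.8. These ratios of salvage to committed de novo gene did not overlap between the groups, and no test was made of them. They changed mainly through their denominator, since Ppat had the largest fold fall of the core and Hprt1 and Aprt themselves overlapped between groups. Another core gene, Pfas, fell only 1.23-fold. Of single tested rows, 80.1% had separate groups.

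Pyrimidine synthesis de novo opens with Cad, a fusion of its first activities and the main point of its regulation. Cad measured 51.5 and 49.5 FPKM in controls and 26.0 and 25.9 with IL-22 (-0.93 ± 0.07, limma adjusted p = 8.88e-06), the largest fall of the route. Dhodh, the mitochondrial dihydroorotate dehydrogenase, went from 42.2 and 37.6 to 28.8 and 31.0 FPKM (-0.40). Umps, which completes UMP, went from 77.1 and 78.7 to 49.5 and 47.9 FPKM (-0.67). In each of these 3 genes both treated libraries lay below both controls.

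CTP is made from UTP by CTP synthases, and their genes moved in opposite directions. Ctps1, the form known to be induced in dividing cells, fell from 107.7 and 99.7 to 62.7 and 62.7 FPKM (-0.71 ± 0.07, limma adjusted p = 3.14e-05). Ctps2 rose from 3.37 and 2.75 to 5.74 and 5.04 FPKM (0.66 ± 0.14, limma adjusted p = 0.00274). On the log2(FPKM + 1) scale Ctps2 was the largest rise among the tested enzymes, from a low level. Ctps1 still held most of the summed level, at 97.0% and 97.3% in controls and 91.6% and 92.6% with IL-22.

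Salvage of uridine and cytidine runs through kinases, among them Uck1 and Uck2. The related gene Uckl1, counted below with the interconverting pyrimidine genes, rose from 16.6 and 17.7 to 25.9 and 23.6 FPKM (0.50, limma adjusted p = 9.81e-04). Uck1 fell from 33.2 and 29.4 to 19.5 and 20.2 FPKM (-0.63 ± 0.09, limma adjusted p = 2.61e-04). Uck2 measured 47.6 and 48.8 FPKM in controls and 49.6 and 62.0 with IL-22, without overlap but with the 2 treated libraries far apart (0.20 ± 0.10, limma adjusted p = 0.117), and it passed as higher without IL-22 library 1 (limma adjusted p = 0.0103) and with quantile normalization (0.0336). Uck2 held 59.0% and 62.4% of the pair in controls and 71.8% and 75.5% with IL-22. Relative to Cad, the level of Uck2 was 0.925 and 0.987 in controls and 1.91 and 2.40 with IL-22. This ratio changed mainly through Cad, which fell 1.95-fold, while Uck2 was 1.16-fold higher and did not pass. No test was made of the ratio.

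Of the kinases that add the later phosphates, Nme1, Nme2 and Nme3 passed the test. In the whole list of 8 genes of pyrimidine salvage and nucleotide kinases, 4 passed (50%), all as lower. Over all tested rows 58.4% passed in either direction. Guk1 and Cmpk1, which phosphorylate GMP and the pyrimidine monophosphates, differed by -0.03 and -0.08 with overlapping groups. Among the nucleoside diphosphate kinases, Nme2 was the highest gene of the whole list at 789 and 716 FPKM in controls and 636 and 652 with IL-22 (-0.22 ± 0.07, limma adjusted p = 0.0201), a call lost without either treated library (limma adjusted p = 0.129 and 0.0807) or without control library 1 (0.0717), with no filter on low values (0.0608) and without the variance trend (0.0678). Nme1 measured 184 and 148 FPKM in controls and 128 and 132 with IL-22 (-0.34 ± 0.10, limma adjusted p = 0.0126). Nme1 lost its call with no filter on low values (limma adjusted p = 0.0800), and without control library 1 its difference was -0.19 (limma adjusted p = 0.0497). Nme1 and Nme2 are closely related neighbours, so the split of reads between them may be uncertain, which was not tested. Nme3 went from 22.8 and 14.9 to 10.95 and 12.2 FPKM (-0.63 ± 0.16, limma adjusted p = 0.0091), with control library 1 well above the rest, and lost its call without that library (-0.34, limma adjusted p = 0.0568) or with no filter on low values (0.0832). Nme4, the mitochondrial form, measured 18.3 and 19.5 FPKM in controls and 19.3 and 25.1 with IL-22 and did not pass (limma adjusted p = 0.159). It passed as higher without IL-22 library 1 (0.39, limma adjusted p = 0.0112).

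The genes of ribonucleotide reductase moved in both directions. Rrm2, the small subunit of ribonucleotide reductase that is made in S phase, had 308 and 306 FPKM in the controls against 115 and 106 after IL-22 (-1.46 ± 0.07, limma adjusted p = 4.55e-07). Rrm1, the large subunit, went from 97.6 and 94.8 to 49.97 and 44.2 FPKM (-1.02 ± 0.08, limma adjusted p = 8.19e-06). Both falls were large beside the spread of the replicates. Rrm2b, the small subunit used outside S phase and for mitochondrial DNA, measured 2.56 and 2.73 FPKM in controls and 4.73 and 3.24 with IL-22. Its rise just passed (0.44 ± 0.16, limma adjusted p = 0.0458). The call was lost without either control (limma adjusted p = 0.199 and 0.146) and without IL-22 library 1, where the difference was 0.22 (limma adjusted p = 0.374). It was also lost with no filter on low values (limma adjusted p = 0.122) and with quantile normalization (0.29, limma adjusted p = 0.170). Without IL-22 library 2 the difference was 0.65. The level of Rrm2 relative to Rrm1 was 3.15 and 3.23 in controls and 2.31 and 2.41 with IL-22. That of Rrm2b relative to Rrm1 was 0.0262 and 0.0288 in controls and 0.0947 and 0.0732 with IL-22. The ratio of Rrm2b to Rrm1 changed more through Rrm1, which fell 2.04-fold, than through Rrm2b, which was 1.51-fold higher. No test was made of these ratios. Rrm2 nevertheless made up 96.1% and 97.1% of the 2 small subunits with IL-22, against 99.2% and 99.1% in controls.

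Genes of both cytosolic routes to thymidylate fell. Tyms, the thymidylate synthase gene, went from 67.7 and 68.6 to 23.5 and 21.8 FPKM (-1.55 ± 0.07, limma adjusted p = 6.48e-07). Tk1, the cytosolic thymidine kinase gene, went from 162 and 167 to 57.5 and 53.5 FPKM (-1.55 ± 0.07, limma adjusted p = 3.86e-07). These were the largest differences of the list on this scale, and the level of Tk1 relative to Tyms was nearly the same in all libraries, at 2.39 and 2.43 in controls and 2.44 and 2.46 with IL-22. The enzymes that feed dUMP to Tyms fell as well. Dut, which cleaves dUTP to dUMP, measured 194 and 177 FPKM in controls and 106 and 98.0 with IL-22 (-0.86), and Dctd, which deaminates dCMP, 44.9 and 46.8 against 31.7 and 26.4 FPKM (-0.64). The exception was Dtymk, which phosphorylates dTMP after both routes have met, at 84.3 and 72.2 FPKM in controls and 78.9 and 75.4 with IL-22. Its treated libraries lay between the controls (-0.02 ± 0.08, limma adjusted p = 0.879).

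The window around the start of Tyms is shown as an example of an E2F word close to the start of a gene that fell strongly. It lies at chr9:120776034-120776333 on the minus strand of GRCr8, as RefSeq places the start, and the word TTTGGCGC in capitals begins 37 bases before that start.
Tyms: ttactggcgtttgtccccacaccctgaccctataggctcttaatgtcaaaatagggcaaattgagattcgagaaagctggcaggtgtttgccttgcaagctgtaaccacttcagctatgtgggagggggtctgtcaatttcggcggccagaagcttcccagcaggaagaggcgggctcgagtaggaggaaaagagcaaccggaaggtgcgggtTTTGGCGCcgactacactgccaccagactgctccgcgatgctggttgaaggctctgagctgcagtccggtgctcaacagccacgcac
Of the 41 genes, 37 had a window in the RefSeq table, 36 by symbol and 1 by synonym, and Dhodh, Umps, Rrm2 and Rrm2b had none. An E2F word was found in 3 of them (8.11%), those of Ppat, Tyms and Hprt1. The windows of Tk1 and Rrm1, which also fell by at least 1 on the log2 scale, held none, and Hprt1 did not pass the test. The share was 2.14% of all 33469 windows and 4.41% of 7171 windows of tested genes. In 16 windows of DNA replication and S-phase genes listed for comparison, 10 held a word (62.5%). The letters CCAAT, on either strand, were in 9 of the 37 (24.3%), in 37.5% of all windows and in 38.3% of those of tested genes. CACGTG was in 3 of the 37 (8.11%), above the 6.42% of all windows and below the 9.89% of those of tested genes. These are matches of letters only.

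Cytosolic and mitochondrial deoxynucleoside kinases moved apart. Dck, the cytosolic deoxycytidine kinase gene, fell from 8.63 and 7.35 to 5.77 and 4.88 FPKM (-0.51 ± 0.13, limma adjusted p = 0.00708), a call lost without control library 1 (-0.40, limma adjusted p = 0.0734). Tk2, the mitochondrial thymidine kinase gene, rose from 8.76 and 7.73 to 11.3 and 11.2 FPKM (0.41 ± 0.10, limma adjusted p = 0.00766). Dguok, the mitochondrial deoxyguanosine kinase gene, rose from 7.18 and 8.16 to 10.7 and 11.1 FPKM (0.45 ± 0.10, limma adjusted p = 0.00474). In all 3 the groups were separate. Tk1 accounted for 94.9% and 95.6% of the thymidine kinase pair in controls and 83.6% and 82.7% with IL-22. Dck accounted for 54.6% and 47.4% of its sum with Dguok in controls and 35.1% and 30.6% with IL-22, so Dguok was about level with Dck in controls and the higher gene with IL-22.

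**Figure D3:**
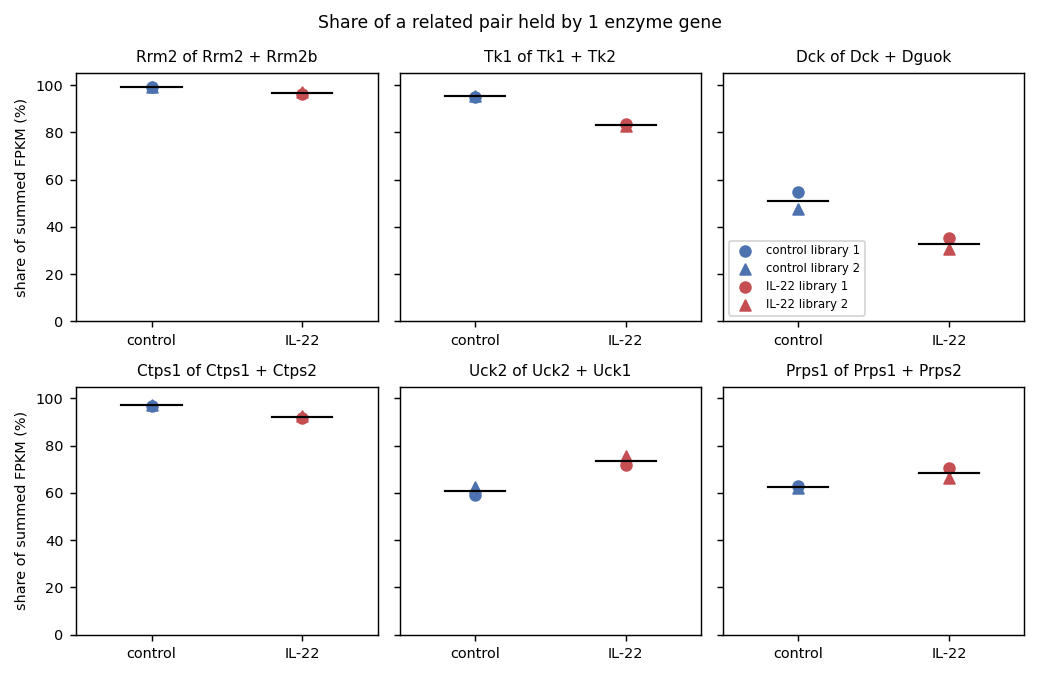
Share of the summed FPKM of a related gene pair held by the gene named first, in percent, with 1 symbol per library and a bar at the group mean. The mean share of Tk1 went from 95.2% to 83.2% and that of Dck from 51.0% to 32.9%, while Uck2 went from 60.7% to 73.6%.

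Enzymes that break nucleotides down were represented by Samhd1 and Nt5e. Samhd1, the hydrolase that degrades dNTPs and is known for being active outside S phase, fell from 6.41 and 6.42 to 3.37 and 3.58 FPKM (-0.73 ± 0.12, limma adjusted p = 6.21e-04). Nt5e, the cell-surface enzyme that makes adenosine from AMP, lay under the expression minimum and was not tested, at 0.0467 and 0.146 FPKM in controls and 0.474 and 0.473 with IL-22.

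Summed over their genes, dNTP and dTMP synthesis amounted to 799 and 768 FPKM in controls and 410 and 375 with IL-22, and the purine de novo core to 377 and 361 against 249 and 247 FPKM. As a reference for DNA synthesis, a list of replication factors with the cyclin genes Ccne1 and Ccne2 was used, chosen with earlier results known. All 19 tested genes of that list were lower (100%), against 30.8% of all tested rows. Their differences ran from -2.14 to -0.55, with a median of -1.30 against -0.02 over all tested rows. Their part in the falls of the nucleotide genes was not tested. Rrm2, Tyms and Tk1 lay beyond the list median of -1.30, while 37 of the 40 tested enzymes had smaller falls or rose.

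Beyond the enzymes above, 57 further genes of nucleotide metabolism had a row and 43 were tested, of which 14 were lower (32.6%) and 16 higher (37.2%), with a median of -0.03. The shares over all tested rows were 30.8% lower and 27.6% higher. Of the catabolic and interconverting enzymes, 7 of 14 were higher (50%) and 3 lower (21.4%) for purines. For pyrimidines 4 of 9 were higher (44.4%) and 2 lower (22.2%). The 4 higher pyrimidine genes include Uckl1, named above with the uridine kinases. Upp1, the uridine phosphorylase gene, rose from 12.5 and 11.7 to 48.3 and 50.8 FPKM (1.95 ± 0.08, limma adjusted p = 2.72e-07), and reached 0.973 and 0.82 of the level of Uck2, which uses the same nucleoside, from 0.262 and 0.24 in controls. Cda, the cytidine deaminase gene, rose from 30.9 and 30.2 to 66.4 and 80.9 FPKM (1.24, the higher of 2 near-equal rows), while Dctd fell. Dpyd, which starts the degradation of uracil and thymine, went from 0.34 and 0.169 to 1.74 and 1.91 FPKM (1.17). These 3 genes were higher in both treated libraries than in both controls. In the same list Tymp, the thymidine phosphorylase gene, fell from 28.2 and 27.9 to 17.9 and 19.3 FPKM (-0.57), and Nt5c3b, a nucleotidase gene, from 22.0 and 24.8 to 12.8 and 14.2 FPKM (-0.75), both with separate groups.

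Among the purine genes, of which 7 were higher and 3 lower, Ada, which deaminates adenosine, rose from 14.3 and 12.6 to 34.2 and 33.8 FPKM (1.28). Gmpr, which returns GMP to IMP, rose from 3.12 and 1.52 to 5.77 and 8.20 FPKM (1.29). Ampd2 fell from 50.4 and 51.1 to 34.0 and 32.8 FPKM (-0.59), and Itpa from 87.6 and 75.4 to 59.8 and 57.8 FPKM (-0.46), both with separate groups. Of the 5 tested genes that clear damaged or surplus nucleotides, 1 was higher (Nudt18, 1.48) and 2 were lower (Dctpp1, -0.51, and Nudt5, -0.42). These shares were 20% higher and 40% lower, against 27.6% and 30.8% of all tested rows. Of the 4 tested nucleoside transporters, Slc29a4 rose from 0.445 and 0.694 to 4.01 and 3.34 FPKM (1.57), Slc29a2 fell from 6.01 and 7.18 to 3.10 and 3.74 FPKM (-0.78), and Slc29a3 was lower by limma (-0.29, adjusted p = 0.0462), a call lost without either control or IL-22 library 1, with no filter, with quantile normalization and without the variance trend (the adjusted p ran from 0.0282 to 0.241 over all alternatives).

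Folate carries the carbon units that Gart, Atic and Tyms use. Of 11 tested folate genes 5 were lower (45.5%) and 3 higher (27.3%), against 30.8% and 27.6% of all tested rows. Mthfd1, the cytosolic enzyme, fell from 73.2 and 69.7 to 32.4 and 34.3 FPKM (-1.08 ± 0.07, limma adjusted p = 3.98e-06). Mthfd2, a mitochondrial counterpart, rose from 30.7 and 27.2 to 80.3 and 77.1 FPKM (1.41 ± 0.08, limma adjusted p = 1.56e-06). The other mitochondrial counterparts, Mthfd1l (0.11, limma adjusted p = 0.259) and Mthfd2l (0.14, limma adjusted p = 0.433), did not pass. Aldh1l1, which removes folate-bound carbon units, rose from 2.10 and 1.98 to 6.55 and 5.73 FPKM (1.23).

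**Figure D4:**
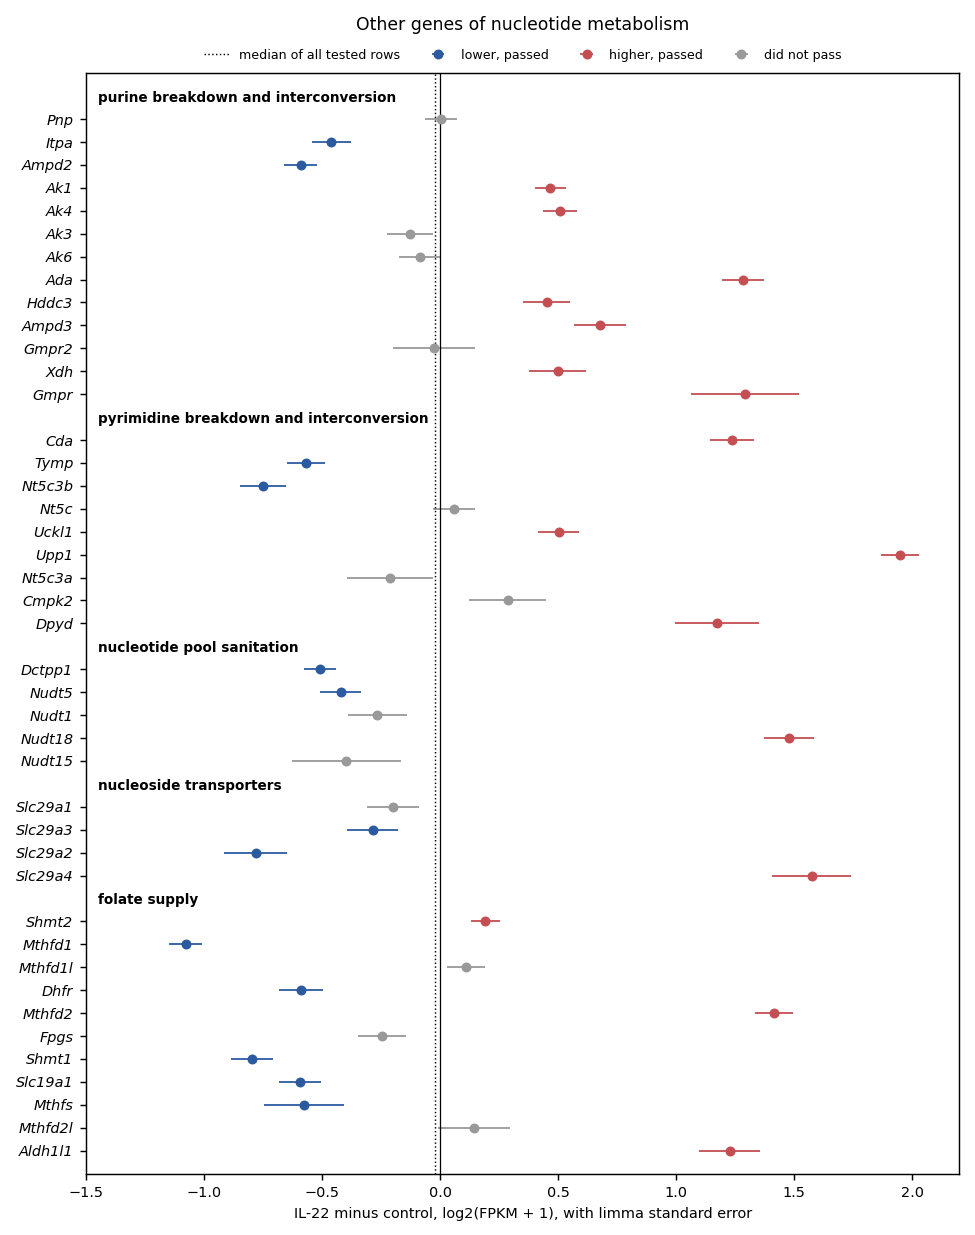
Difference of IL-22 from control, in log2(FPKM + 1), for 42 of the 43 other tested genes of nucleotide metabolism, with limma standard errors as bars. Red points (16) passed as higher and blue points (13) as lower, with Upp1 farthest to the right at 1.95 and Mthfd1 farthest to the left at -1.08.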

How the data were processed

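Libraries came from poly(A)-selected RNA, per the labels' protocols. The deposited gene table holds FPKM values, 1 column per library. The submitters' processing notes name TopHat2, Cuffdiff and the build rn5. Which annotation and strand setting were used is not stated there. A table of lncRNAs was not used, and 1 gene of a further list, though counted, is not reported here by value. FPKM are not counts, so log2(FPKM + 1) was fitted in R 4.3.3 by limma 3.58.1 without covariates (two-sided, trended eBayes). Rows averaging at least 1 FPKM entered, with Benjamini-Hochberg adjustment over all 9485 rows. This scale understates changes of low genes, and folds are ratios of mean FPKM. Relative depth was the commonest ratio of rows under 0.15 FPKM. The fit was tested on simulated data. The enzymes, routes and other lists were chosen with earlier results of these data known. Genes given by library were those past the threshold by at least 0.5, related pairs, the highest of each route and those under the minimum, and up to 3 per further list. Alternatives were other pseudocounts, filters, scalings, variance models, a replicate block, summed rows and leaving out each library. Windows around starts are those of RefSeq for GRCr8. Figures used Python 3.11.15 with matplotlib 3.10.9.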

Additional observations from a re-analysis of the deposited data

How the results depend on the processing

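Of the 31 enzyme genes called, 23 (20 lower, 3 higher) kept their direction and side of the threshold under all alternatives in which they were tested, out of 14. The other 8 (Pfas, Impdh2, Adk, Nme1, Nme2, Nme3, Rrm2b and Dck) lost the call under at least 1, and 4 genes that were not called (Hprt1, Aprt, Uck2 and Nme4) passed under at least 1. The count of lower genes ranged from 24 to 27 under alternatives of processing and from 23 to 29 without single libraries, and that of higher genes from 3 to 5 without single libraries. With a filter of 5 FPKM only 2 genes were called higher, since Rrm2b and Ctps2 were then not tested. The median difference was -0.36 with a pseudocount of 5 and from -0.53 to -0.36 without single libraries, the smallest fall being without control library 1. For the purine de novo core it was -0.46 with a pseudocount of 5 and -0.49 with quantile normalization, where the cause was not tested. Signs changed only for 3 genes that were never called. Without single libraries Impdh1 ranged from -0.051 to 0.058, Guk1 from -0.13 to 0.060 and Dtymk from -0.13 to 0.094, and Dtymk was at 0.035 with quantile normalization. No scaling moved the median of all rows by more than 0.1. Libraries of the same number did not deviate together (r = -0.0020 across 9485 genes, which are not independent replicates), and with the replicate number as a block 27 genes were lower and 5 higher, Uck2 being added (limma adjusted p = 0.0332). Leaving out a library left 1 in its group, whose spread was then taken from the other group. Read totals are unknown, which limits precision for low genes such as Rrm2b, Ctps2 and Nt5e.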
